A study of Mus musculus with 10 samples.

Results

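A set of 37 genes that encode metabolic enzymes and lipid-handling proteins of the liver was followed in RNA-seq counts from mouse skeletal muscle. The members were chosen by name, with the difference between the groups of these same libraries already known, and all 37 are rows of a count table of 15883 genes. That choice used the contrast of transgenic against wild type, so every value of that contrast below is a description of the members and no test of them. The rule then sets each member beside Alb, the gene of serum albumin, library by library.

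Male C57BL/6J mice, 5 weeks old and on normal chow, had been fasted for 16 hours before RNA was taken from a hindlimb muscle, the biceps femoris. There were 5 wild-type libraries and 5 libraries from mice that carry a Zfp407 transgene, where Zfp407 encodes a zinc finger protein. The sources used here do not give the promoter of the transgene or the number of founder lines, and no column of the table is tied to a single mouse, so each library goes by its group and the number of its column. The series title ties overexpression of the gene to glucose homeostasis.

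The enzymes of this set are known from hepatocytes, the main cells of the liver. Hepatocytes take up amino acids, drugs, sterols and alcohols from the blood, turn ammonia into urea, release glucose in fasting and secrete albumin and other plasma proteins. Most of these enzymes have little or no known role in muscle fibres, where sister enzymes from other genes often carry out the same step. A few, such as Pck1, Cyp2e1, Cyp27a1, Adh1 and Aldh1a1, are also known from fat cells, macrophages or connective tissue cells.

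Library totals ran from 13530367 to 17814900 counts in wild-type muscle and from 15162400 to 19047834 in transgenic muscle, and levels are given as CPM, counts scaled by TMM for the size and makeup of each library. The members took 0.0265% to 0.0468% of a wild-type library and 0.0461% to 0.283% of a transgenic library. Another 3 genes, Lars2, Gm15564 and Gm15662, together took 33.9%, 29.3%, 19.9%, 18.2% and 14.3% of wild-type libraries 1 to 5. In the transgenic libraries they took 9.62% to 17.3%, so shares of the total are not fully alike between the groups. Zfp407 stood at 22.9 ± 1.73 CPM in wild-type muscle and 489 ± 124 CPM in transgenic muscle (SD, n = 5 each), in accord with the labels. The 6 muscle markers summed to 59612 to 95068 CPM per library. All 6 secreted hepatocyte proteins listed as markers were called higher, and their summed level was 54.3 to 146 CPM in wild-type muscle and 249 to 3725 CPM in transgenic muscle. The 5 adipocyte markers summed to 81.6 to 673 CPM in wild-type muscle and 90.8 to 552 CPM in transgenic muscle. Of 4 leukocyte markers 1 was called higher, with sums of 76.3 to 142 CPM and 99.3 to 259 CPM. Bile duct markers stayed under 1 CPM in sum in every library, and Clec4f, which marks liver macrophages, had 1, 0, 1, 1 and 3 counts in wild-type muscle and 3, 7, 3, 18 and 39 counts in the transgenic libraries. The list of 3 liver macrophage and sinusoid markers that holds Clec4f summed to 10.3 to 15.9 CPM in wild-type muscle and 7.18 to 15.6 CPM in transgenic muscle, and its 1 tested gene was not called. In bulk RNA, more cells of a type and more RNA per cell cannot be told apart. The part of hepatocyte RNA in the results below was not tested.

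Most of the liver enzymes were higher in the transgenic libraries. Of the 34 members that passed the filter on low counts, 25 were higher by edgeR's quasi-likelihood test at a Benjamini-Hochberg adjusted p of 0.05, where 4.28% of all 13338 genes tested were called higher. The other 9 tested members were not called, and 3 members, Adh4, Sds and Agxt, were too low to be tested. The background share stands beside the count for scale only, since the members were chosen with this contrast known. No member was lower by edgeR, with 0 members lower at an unadjusted p under 0.05 and 0 by DESeq2, where 1.05% of genes tested were called lower by edgeR. All 34 log2 fold changes were above 0, with a median of 3.32 against 0.003 over all genes tested. Every transgenic library lay above every wild-type library in 25 of the 34 tested members, where 5.14% of genes tested did so, and in 27 of all 37. The reverse held for no member and for 2.9% of genes.

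The size of these differences rested on transgenic library 5, and many calls on the wild-type libraries. Library 5 held the highest level of all libraries in 36 of 37 members. Without it the median log2 fold change of the members was 2.19, and without transgenic libraries 4 and 5 it was 1.82. The called members spanned log2 fold changes of 2.62 to 4.30 over all libraries, 1.55 to 2.96 without library 5 and 1.26 to 2.37 without libraries 4 and 5. In fits that each left out 1 library, 15 of the 25 members kept the call throughout. The other 10 were Cyp2c29, Cyp2d26, Cyp8b1, Otc, Ass1, Hpd, Hgd, Ces3b, Gnmt and Hsd17b13, with an edgeR adjusted p of 0.0507 to 0.0810 where the call was lost. All 10 lost it without wild-type library 3, 8 of them without library 2, 6 without library 4, 5 without library 1 and 3 without library 5. Their size moved little with it: without wild-type library 3 these 10 had log2 fold changes of 2.63 to 4.09, against 2.62 to 4.30 over all libraries, with SEs of 0.71 to 1.06 against 0.62 to 0.95. Leaving out 1 transgenic library cost none of the 25 its call, and without transgenic libraries 4 and 5 Otc lost it (edgeR adjusted p = 0.106).

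**Figure D1:**
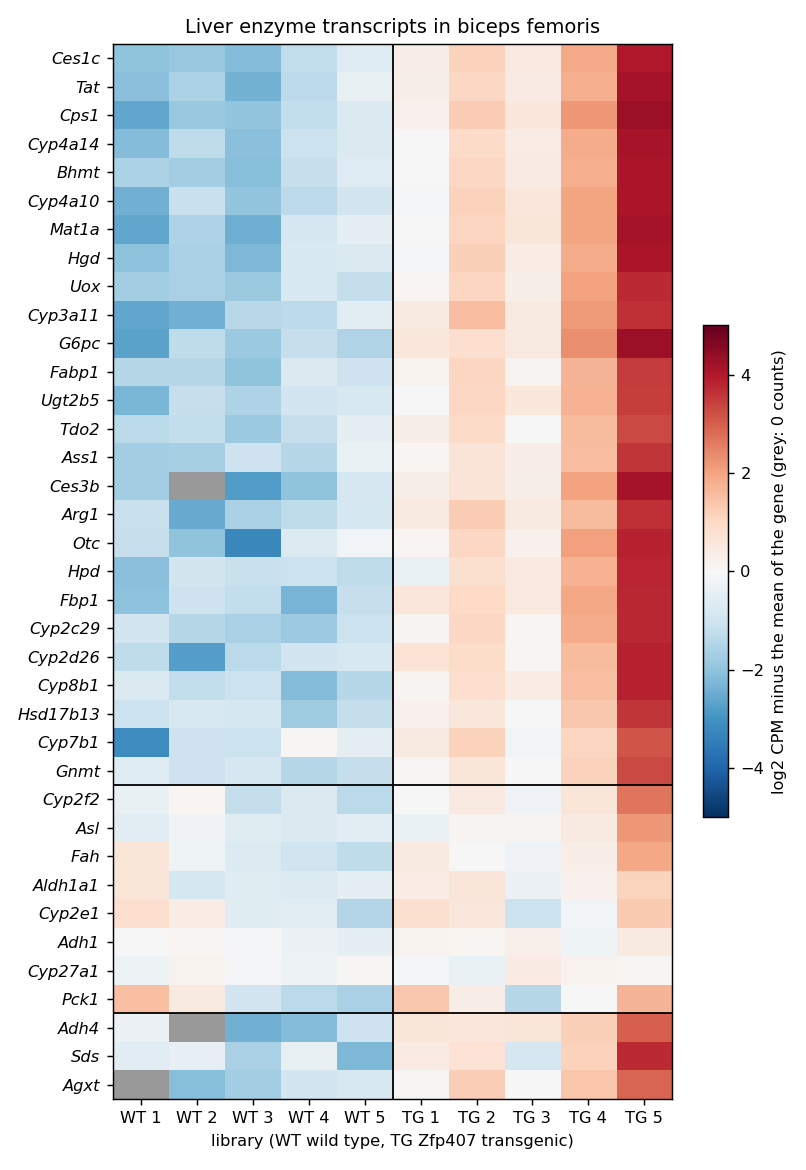
Heat map of member levels in the 10 libraries, as log2 CPM relative to the mean of the gene over all libraries, with libraries in columns and members in rows, first those that follow Alb (as classed below), then those that do not and the 3 not tested; grey marks 0 counts. Transgenic library 5 holds the highest level in 36 of 37 rows, and rows such as Cyp27a1 and Adh1 stay near 0 in all columns.

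Alb set the scale for the comparison by library. It stood at 41.4, 54.0, 46.0, 76.8 and 116 CPM in wild-type libraries 1 to 5 and at 197, 419, 249, 715 and 3038 CPM in transgenic libraries 1 to 5. The groups did not overlap, and the highest library held 73.5 times the level of the lowest. The log2 fold change was 3.79 ± 0.71 (SE).

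For most members the ratio to Alb varied less than the level. A member was classed as following Alb where the SD over 10 libraries of log2 (member / Alb) was smaller than the SD of its own log2 CPM. By this measure 26 of the 34 tested members followed Alb, and Cyp2e1, Cyp2f2, Cyp27a1, Asl, Fah, Pck1, Adh1 and Aldh1a1 did not. Both SDs take in the difference between the groups, known when the members were chosen, so the class describes them and is no test. The share of all genes that this measure would class as following Alb was not computed. Nearest to the line were Cyp7b1 among those that followed, with an SD of 1.34 for its level and 0.849 for its ratio, and Cyp2f2 among those that did not, with 1.11 and 1.2. Ces3b had 0 counts in wild-type library 2, so it has no such span over the 10 libraries. Over the rest of the 26, the highest library held a median of 72.0 times the level of the lowest and 2.53 times the ratio to Alb. Within the transgenic libraries, and with Ces3b, the median span of the ratio was 1.42 times. The ratio still spanned 5.06 times for Cyp8b1, 4.89 for Cyp7b1, 4.88 for Gnmt and 4.73 for Otc over the 10 libraries. The closest was Ces1c, an esterase that mouse liver secretes into plasma, with an SD of 1.92 for the level and 0.126 for the ratio. Its count per 1000 Alb counts was 21, 17.3, 16.9, 19.5 and 19.3 in wild-type muscle and 22.3, 18.7, 19.6, 18.2 and 18.4 in the transgenic libraries. The ranges of the groups overlap. In 25 of the 26, the transgenic libraries kept one order, with library 5 highest, then 4, then 2, above libraries 1 and 3. Within wild type alone 17 members followed Alb, and within the transgenic libraries alone 28 did.

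**Figure D2:**
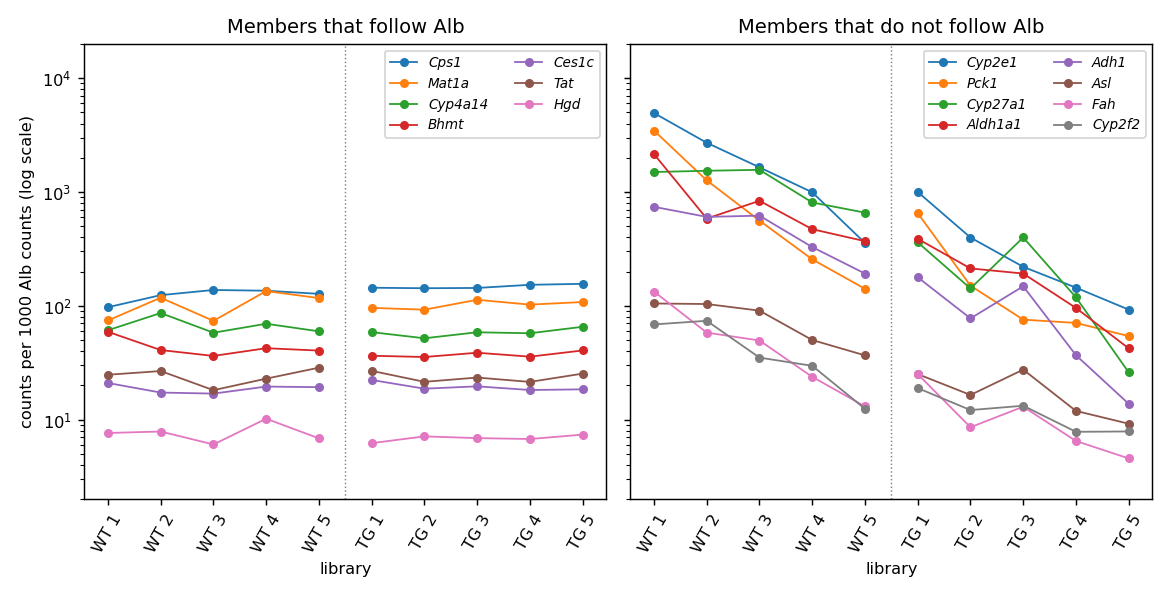
Counts per 1000 Alb counts on a log axis in each of the 10 libraries, for members that follow Alb and for members that do not; lines only join the libraries of a group for 1 gene. Ces1c, Cps1 and Tat run nearly level from library to library, while Pck1 and Cyp27a1 stand at 3467 and 1499 in wild-type library 1 and at 54.1 and 26.0 in transgenic library 5.

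**Figure D3:**
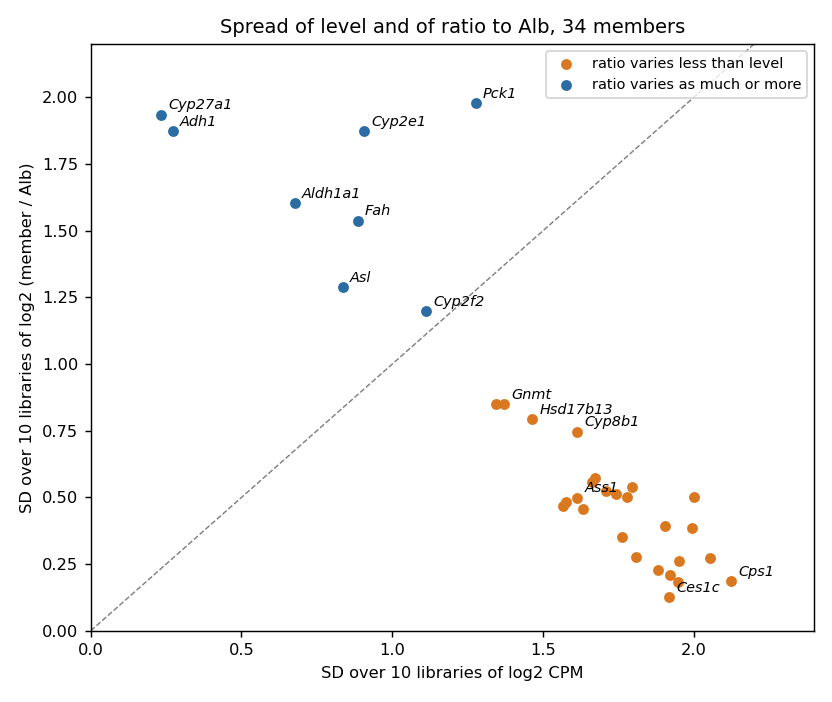
SD over 10 libraries of log2 (member / Alb) against SD of log2 CPM for the 34 tested members, with a dashed line of equality. The 26 members below the line follow Alb, and the 8 on the other side do not.

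The same relation was fitted within the groups, so that the difference between the groups played no part. In an edgeR fit of each gene on log2 Alb CPM beside the group, a slope of 1 means that a gene changes by the same fold as Alb. Of the 34 tested members 28 had a positive slope past an adjusted p of 0.05, where 1.59% of 13337 genes did and 0.0975% had a negative one. The 28 were the 26 that follow Alb, with slopes from 0.76 to 1.07 and a median of 0.91, and Cyp2f2 and Asl. The class was taken from the same levels, so the slopes of its members describe the class and do not test it. The median slope was 0.87 over all 34 members and 0.0005 over all genes. Without transgenic library 5, 11 members kept a called slope where 0.386% of genes did, 25 had an unadjusted p under 0.05 and the median slope was 0.74. Without transgenic libraries 4 and 5 edgeR called no gene at all, and no other tool was run for the slope. In that fit 18 members had an unadjusted p under 0.05, and the median slope of the members was 0.59. The share of all genes at an unadjusted p under 0.05 was not taken for either fit. The counts of 25 and 18 members therefore have no scale beside them. In the fit with all libraries the group difference that remained beside Alb ran from -0.41 to 0.54 on the log2 scale over the 26 and passed for no member by edgeR, with a lowest adjusted p of 0.456 and 0 members at an unadjusted p under 0.05. Alb itself separates the groups, so a difference that does not pass beside it is not shown to be absent. In counts pooled by group, 22 of the 26 had a lower ratio to Alb in transgenic muscle and 4 a higher one. Taken instead as the median over the libraries of a group for each member, the ratio had a median over the 26 of 19.8 per 1000 Alb counts in wild-type muscle and 13.4 in transgenic muscle.

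Promoter sequences from RefSeq (GRCm38.p6) are shown for 3 members that follow Alb and for Cyp27a1, the flattest member. The 3 were picked for holding some of the words given below, so their contrast with Cyp27a1 was made by the choice. Windows of 300 bases, from 250 before to 50 after a gene's start, were held for 29 of the 37 members; Cyp4a10, Cyp4a14, Cyp7b1, Cps1, Asl, Arg1, Mat1a and Sds had none. The bases shown lie before the start in both RefSeq and GENCODE, run 5′ to 3′ on the gene's strand, and have capitals only where 1 of 4 short words stands on either strand. The words were GTTAAT, part of the sequence bound by the liver factor HNF1, CAAAGTC, a core of the sequence bound by HNF4, AGGTCA, the core element of many nuclear receptors, and TATAAA, the TATA box. No word contains another.
Cyp8b1 (chr9:121916306-121916555, minus strand): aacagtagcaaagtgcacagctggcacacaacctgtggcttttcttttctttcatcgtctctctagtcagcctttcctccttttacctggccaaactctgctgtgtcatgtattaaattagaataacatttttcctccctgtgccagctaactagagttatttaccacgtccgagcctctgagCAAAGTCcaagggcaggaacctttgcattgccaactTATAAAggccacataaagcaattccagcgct
Ces3b (chr8:105083505-105083752, plus strand): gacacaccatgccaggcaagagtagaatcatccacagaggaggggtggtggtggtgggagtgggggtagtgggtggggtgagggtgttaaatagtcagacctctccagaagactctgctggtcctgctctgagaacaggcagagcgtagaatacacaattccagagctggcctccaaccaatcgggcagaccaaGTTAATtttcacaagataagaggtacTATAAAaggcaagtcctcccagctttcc
Hgd (chr16:37579903-37580152, plus strand): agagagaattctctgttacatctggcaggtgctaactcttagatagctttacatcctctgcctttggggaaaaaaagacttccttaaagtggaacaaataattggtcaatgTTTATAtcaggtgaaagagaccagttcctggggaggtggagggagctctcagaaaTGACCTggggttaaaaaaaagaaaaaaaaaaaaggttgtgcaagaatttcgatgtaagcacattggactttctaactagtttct
Cyp27a1 (chr1:74713285-74713534, plus strand): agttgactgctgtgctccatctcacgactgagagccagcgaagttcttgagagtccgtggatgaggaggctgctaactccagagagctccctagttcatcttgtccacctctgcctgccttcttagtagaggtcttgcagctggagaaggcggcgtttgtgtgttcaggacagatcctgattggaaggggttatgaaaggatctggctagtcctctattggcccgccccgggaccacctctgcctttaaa
The Cyp8b1 bases hold CAAAGTC and TATAAA, the Ces3b bases GTTAAT and TATAAA, and the Hgd bases AGGTCA and TATAAA, both on the opposite strand. The bases of Cyp27a1 hold none of the 4 words. The windows of Ass1, Ces1c, Fbp1, Hpd, Otc, Tat and Uox, which follow Alb, hold none of them either. Over the 20 windows of members that follow Alb, AGGTCA was in 10 (50%) and TATAAA in 9 (45%), against 16.3% and 13.6% of all 32851 windows. GTTAAT and CAAAGTC were each in 4 of the 20 (20%), against 7.1% and 4.44% of all windows. Each word was in 1 of the 8 windows of members that do not follow Alb (12.5%). These are counts of letters, not of bound sites.

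Among the 7 cytochrome P450 enzymes of foreign compounds and fatty acids, 5 were called higher and Cyp2e1 and Cyp2f2 were not. Cyp4a10 hydroxylates fatty acids at their far end and is a known target of the receptor PPARα in liver. Its level was 1.02, 2.54, 1.39, 2.21 and 2.82 CPM in wild-type libraries 1 to 5 and 5.28, 12.2, 7.97, 21.6 and 92.9 CPM in transgenic libraries 1 to 5. No transgenic library fell into the wild-type range, and library 5 stood far above the other 4. The log2 fold change was 3.81 ± 0.76 (SE). Cyp4a14, its neighbour on chromosome 4 with a like sequence, had 2.52 to 6.93 CPM in wild-type muscle and 11.6 to 199 CPM in the transgenic libraries, and reads that the pair could share make both values uncertain. Cyp3a11, a broad drug-metabolising enzyme induced through the receptor PXR, went from 3.60 ± 2.02 to 44.6 ± 45.8 CPM (SD, n = 5 each). Cyp2c29 and Cyp2d26 were rare transcripts, at 0.390 to 0.709 and 0.169 to 0.650 CPM in wild-type muscle and 1.46 to 18.8 and 1.2 to 16.4 CPM in the transgenic libraries. The log2 fold changes of the 5 called members lay between 3.37 and 3.81, and between 2.17 and 2.77 without transgenic library 5. All 5 followed Alb over the 10 libraries. In wild type Cyp2c29 stood at 17.1, 9.42, 9.66, 5.08 and 5.59 per 1000 Alb counts, so it kept no fixed ratio there. The wild-type values of Cyp2c29 and Cyp2d26 rest on 6 to 9 and 2 to 9 counts per library.

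Cyp2f2, an enzyme of periportal hepatocytes and of airway club cells, followed Alb only in part. It stood at 2.84, 3.98, 1.61, 2.28 and 1.44 CPM in wild-type muscle and at 3.73, 5.08, 3.29, 5.58 and 23.9 CPM in the transgenic libraries. The groups overlapped, and library 5 alone stood well above wild type. Its slope on Alb within groups was 0.63 ± 0.12 (SE; edgeR adjusted p = 0.0154) and its log2 fold change 1.78 ± 0.54 (SE). Without transgenic library 3 it was called higher (log2 fold change 1.98, edgeR adjusted p = 0.0487). Cyp2f2 overlaps Gm15883 on the opposite strand, and whether the counting used strand is not given.

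Cyp2e1 oxidises ethanol and ketone bodies and is known from both liver and fat. Its level was 204, 146, 75.7, 76.3 and 41.4 CPM in wild-type muscle and 197, 167, 54.7, 103 and 281 CPM in the transgenic libraries. The groups overlapped across most of their range, and wild-type library 1 held more than 4 of the 5 transgenic libraries. Per 1000 Alb counts it ran from 357 to 4943 in wild-type muscle and from 92.5 to 1000 in transgenic muscle, so it had no fixed ratio to Alb. The log2 fold change was 0.56 ± 0.44 (SE) and the slope on Alb 0.11 ± 0.19 (SE).

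The 3 sterol hydroxylases of bile acid synthesis behaved in 3 ways. Cyp8b1, which sets the share of cholic acid among bile acids, stood at 0.709, 0.508, 0.555, 0.260 and 0.433 CPM in wild-type muscle and at 1.28, 2.1, 1.52, 3.31 and 16.9 CPM in the transgenic libraries. Transgenic and wild-type values did not overlap, and the wild-type values rest on 4 to 10 counts per library. It was called higher, with a log2 fold change of 3.32 ± 0.76 (SE), and 2.06 without transgenic library 5. Cyp7b1, an oxysterol hydroxylase, followed Alb but was not called, at 0.0788 to 0.716 CPM in wild-type muscle and 0.633 to 6.11 CPM in the transgenic libraries (log2 fold change 2.37 ± 0.65, SE). It was called with a stricter filter, by DESeq2, and without transgenic library 1 or 3, with adjusted p = 0.0494, 0.00394, 0.0390 and 0.0279 in that order. Cyp27a1, a mitochondrial sterol hydroxylase found in many tissues, stood at 62.0, 82.9, 72.0, 62.1 and 76.5 CPM in wild-type muscle and at 71.2, 59.5, 99.1, 84.7 and 78.9 CPM in the transgenic libraries. Its groups overlapped, and transgenic library 5, the highest for nearly every other member, lay in the middle of the transgenic range. Its slope on Alb was 0.01 ± 0.07 and its log2 fold change 0.15 ± 0.14 (SE).

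Of the 5 urea cycle enzymes, 4 were called higher and followed Alb. Cps1 (chr1:67123026-67231259, GRCm38, plus strand) encodes the mitochondrial enzyme that feeds ammonia into the cycle. It stood at 4.02, 6.69, 6.33, 10.4 and 14.8 CPM in wild-type muscle and at 28.4, 59.7, 35.7, 109 and 474 CPM in the transgenic libraries. The groups did not overlap, and the order of the transgenic libraries was that of Alb. Cps1 had the largest log2 fold change of the cycle, 4.06 ± 0.76 (SE), and 2.78 without transgenic library 5. Its count per 1000 Alb counts was 97.1, 124, 138, 136 and 127 in wild-type muscle and 144, 143, 143, 153 and 156 in the transgenic libraries, a ratio for which the groups did not overlap either. Beside Alb the log2 difference between the groups was 0.11 ± 0.19 (SE). Otc, the ornithine transcarbamylase of mitochondria, had 0.111 to 0.939 CPM in wild-type muscle and 1.11 to 14.7 CPM in the transgenic libraries, and Ass1 1.1 to 2.96 and 3.95 to 44.7 CPM. Arg1, which releases urea, had 0.762 to 2.38 CPM in wild-type muscle and 6.01 to 54.6 CPM in the transgenic libraries, with no overlap.

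Asl, the lyase that splits argininosuccinate, was the exception in the cycle. It stood at 4.33, 5.59, 4.16, 3.84 and 4.26 CPM in wild-type muscle and at 4.95, 6.89, 6.83, 8.51 and 27.9 CPM in the transgenic libraries. Transgenic library 1 lay within the wild-type range and the other 4 above it. Per kilobase of exons its wild-type level, 0.918 CPM, lay between those of Cps1, at 1.52 CPM, and Arg1, at 0.759 CPM. Its log2 fold change was 1.31 ± 0.41 and its slope on Alb 0.54 ± 0.08 (SE; edgeR adjusted p of the slope = 0.00164). The group difference was called by DESeq2 (adjusted p = 0.0188) and by edgeR without transgenic library 1 (adjusted p = 0.0462).

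Tyrosine and tryptophan breakdown gave 4 called members of 5. Tat, the aminotransferase that opens tyrosine breakdown and is known to rise in liver in fasting, stood at 1.02, 1.44, 0.832, 1.76 and 3.32 CPM in wild-type muscle and at 5.28, 8.99, 5.82, 15.3 and 77.0 CPM in the transgenic libraries. The ranges did not overlap. On the log2 scale the difference was 3.74 ± 0.79 (SE), and its ratio to Alb varied with an SD of 0.184 against 1.95 for its level. The next enzymes of the chain, Hpd and Hgd, had 0.945 to 2.12 and 0.277 to 0.794 CPM in wild-type muscle and 3.23 to 55.9 and 1.22 to 22.4 CPM in the transgenic libraries. Tdo2, which opens the breakdown of tryptophan, had 2.61 to 6.86 CPM in wild-type muscle and 9.30 to 94.5 CPM in the transgenic libraries. Without transgenic library 5 the log2 fold changes of the 4 called members lay between 1.99 and 2.41. Hpd overlaps Psmd9, a proteasome gene, on the opposite strand.

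Fah, the enzyme at the end of tyrosine breakdown, did not follow Alb. It stood at 5.51, 3.13, 2.28, 1.82 and 1.52 CPM in wild-type muscle and at 4.95, 3.59, 3.23, 4.63 and 13.8 CPM in the transgenic libraries. The groups overlapped, with wild-type library 1 above 4 of the 5 transgenic libraries. The log2 fold change was 1.09 ± 0.44 and the slope on Alb 0.34 ± 0.15 (SE). Per 1000 Alb counts Fah ran from 13.0 to 133 in wild-type muscle and from 4.55 to 25.1 in transgenic muscle.

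The 3 gluconeogenic enzymes split. G6pc, the phosphatase that lets liver and kidney release free glucose, stood at 0.158, 0.424, 0.277, 0.455 and 0.361 CPM in wild-type muscle and at 1.5, 1.82, 1.39, 5.10 and 19.6 CPM in the transgenic libraries. The groups did not overlap, and the wild-type values rest on 2 to 7 counts per library. Its log2 fold change was 4.09 ± 0.84 (SE), and 2.86 without transgenic library 5. Fbp1, the fructose bisphosphatase of liver and kidney, had 0.390 to 0.932 CPM in wild-type muscle and 2.72 to 26.4 CPM in the transgenic libraries (log2 fold change 3.61 ± 0.68, SE, and 2.59 without transgenic library 5). Both followed Alb and were called higher.

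Pck1, the cytosolic carboxykinase that makes phosphoenolpyruvate in liver, kidney and fat, did neither. It stood at 143, 68.3, 25.8, 19.7 and 16.4 CPM in wild-type muscle and at 129, 62.9, 18.8, 50.5 and 164 CPM in the transgenic libraries. The groups covered almost the same range, and the spread within each was about as large as its mean, at 54.7 ± 53.8 and 85.1 ± 59.7 CPM (SD, n = 5 each). The log2 fold change was 0.64 ± 0.63 and the slope on Alb 0.08 ± 0.25 (SE). Adipoq, the fat cell gene of adiponectin, stood at 105, 50.9, 26.4, 19.7 and 11.2 CPM in wild-type muscle and at 77.2, 51.9, 10.1, 15.4 and 21.9 CPM in the transgenic libraries. In wild type the libraries held the same order for Pck1 and Adipoq. Per Adipoq count Pck1 ran only from 0.977 to 1.46 in wild type, and in the transgenic libraries it was 1.67, 1.21, 1.86, 3.29 and 7.52. Cyp2e1 per Adipoq count ran from 1.95 to 3.87 in wild-type muscle and was 2.56, 3.21, 5.41, 6.71 and 12.8 in the transgenic libraries. With Adipoq in place of Alb, Pck1 and Cyp2e1 were the 2 members whose ratio varied less than their level, with an SD of 0.895 against 1.28 and of 0.788 against 0.907. For both, transgenic libraries 4 and 5 lay furthest above the wild-type ratios, and these libraries were also the highest for Alb. The part of fat RNA in these levels was not tested.

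**Figure D4:**
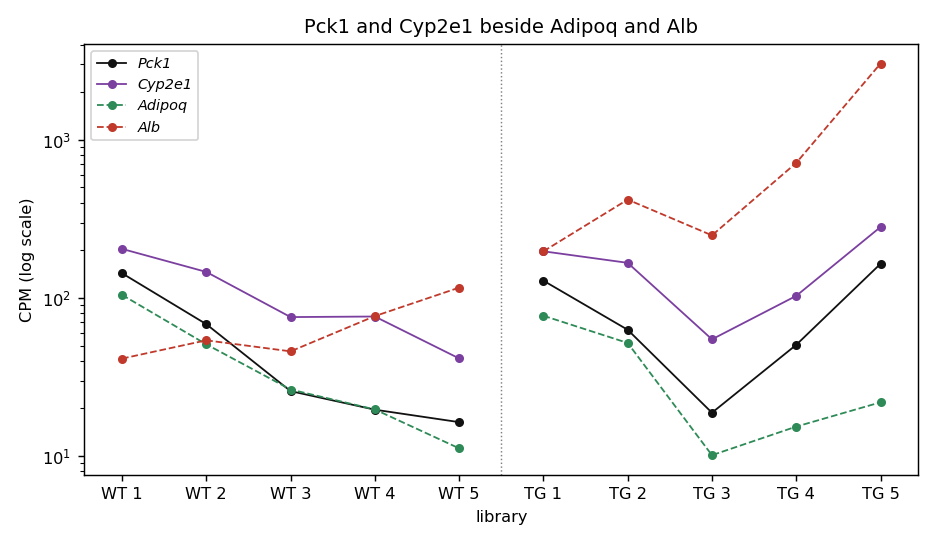
CPM on a log axis of Pck1, Cyp2e1, Adipoq and Alb in each of the 10 libraries, with lines that only join the libraries of a group for 1 gene. In wild type Pck1 and Adipoq are both highest in library 1, at 143 and 105 CPM, and lowest in library 5, at 16.4 and 11.2 CPM, where Alb is highest, at 116 CPM.

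Among the 6 enzymes of alcohols, aldehydes, esters and conjugation, the 3 with little other known expression were called higher. Ces3b, a liver carboxylesterase, stood at 0.236, 0, 0.111, 0.195 and 0.433 CPM in wild type, from 3, 0, 2, 3 and 6 counts, and at 0.945, 1.21, 0.949, 3.12 and 14.0 CPM in the transgenic libraries. No library crossed between the groups. Its log2 fold change was the largest of all members, 4.30 ± 0.95 (SE), and 2.96 without transgenic library 5, and at so few wild-type counts it is loosely fixed. Ces1c had 0.777 to 2.24 CPM in wild-type muscle and 4.39 to 56.0 CPM in the transgenic libraries. Ugt2b5, which joins glucuronic acid to steroids and drugs, had 0.236 to 0.650 and 1.17 to 12.6 CPM. Adh4, an alcohol dehydrogenase that also oxidises retinol, was too rare to test, with 7 counts in all wild-type libraries together and 74 in all transgenic libraries, of which library 5 held 36.

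Adh1 and Aldh1a1, the enzymes that oxidise ethanol and retinol and then retinal, were abundant in both groups. Adh1 stood at 30.6, 32.6, 28.5, 25.2 and 22.3 CPM in wild-type muscle and at 35.1, 32.5, 36.9, 26.3 and 41.8 CPM in the transgenic libraries. The groups overlapped, and the log2 fold change was 0.31 ± 0.14 (SE). Aldh1a1 stood at 89.0, 31.5, 38.5, 36.2 and 43.0 CPM in wild-type muscle and at 76.4, 89.2, 47.8, 68.4 and 128 CPM in the transgenic libraries. Wild-type library 1 lay above 3 of the 5 transgenic libraries, and the other 4 wild-type libraries lay below all of them. The log2 fold change was 0.78 ± 0.30 (SE), and without wild-type library 1 it was 1.1 and called (edgeR adjusted p = 0.0268). Neither gene had a slope on Alb past the threshold, with 0.005 ± 0.065 for Adh1 and 0.15 ± 0.12 for Aldh1a1 (SE). Each overlaps a non-member gene on the opposite strand.

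All 4 tested enzymes of methionine, glycine and urate metabolism were called higher and followed Alb. Mat1a, which makes S-adenosylmethionine in adult liver, stood at 3.07, 6.35, 3.39, 10.3 and 13.6 CPM in wild-type muscle and at 18.9, 38.7, 28.1, 73.2 and 328 CPM in the transgenic libraries. The transgenic libraries all lay above wild type. Its log2 fold change was 3.73 ± 0.78 (SE), and 2.44 without transgenic library 5. Gnmt, which uses up S-adenosylmethionine to methylate glycine, stood at 1.65, 1.27, 1.44, 0.976 and 1.16 CPM in wild-type muscle and at 2.73, 3.91, 2.66, 5.86 and 25.4 CPM in the transgenic libraries. Its groups did not overlap either, but its log2 fold change was the smallest of the 25 called, 2.62 ± 0.62 (SE), and 1.55 without transgenic library 5. Gnmt also kept its ratio to Alb less well, at 40.0, 23.5, 31.4, 12.7 and 9.94 per 1000 Alb counts in wild-type muscle and 13.8, 9.34, 10.7, 8.20 and 8.35 in the transgenic libraries. Bhmt, which returns homocysteine to methionine, had 1.66 to 4.69 CPM in wild-type muscle and 7.17 to 123 CPM in the transgenic libraries. Uox, the urate oxidase of mouse liver, had 0.721 to 1.56 and 2.84 to 35.0 CPM. Bhmt and Uox each overlap another gene of the table on the opposite strand. Sds, the serine dehydratase, and Agxt, which removes glyoxylate, were too rare to test, with 13 and 9 counts in all wild-type libraries together and 108 and 97 in all transgenic libraries. Transgenic library 5 held 69 of the 108 counts of Sds and 44 of the 97 of Agxt. Sds overlaps Plbd2 on the opposite strand.

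Both lipid-handling members were called higher and followed Alb. Fabp1, the fatty acid binding protein of liver and gut, stood at 1.1, 1.1, 0.721, 1.76 and 1.44 CPM in wild-type muscle and at 3.28, 6.19, 3.23, 9.59 and 32.7 CPM in the transgenic libraries. Hsd17b13, a lipid droplet protein of hepatocytes, stood at 0.630, 0.762, 0.721, 0.390 and 0.578 CPM in wild-type muscle and at 1.56, 1.96, 1.33, 3.40 and 15.9 CPM in the transgenic libraries. The groups did not overlap for either gene. The log2 fold changes were 3.16 ± 0.64 for Fabp1 and 2.94 ± 0.71 for Hsd17b13 (SE), and 2.19 and 1.75 without transgenic library 5. The gut markers listed, Vil1, Fabp2 and Lgals4, summed to 2.74 to 5.28 CPM in wild-type muscle and 1.96 to 6.43 CPM in transgenic muscle.

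For 9 members a sister enzyme that muscle or most cells are known to use was also in the table, and the pairs were set side by side as levels per length, in CPM per kilobase of exons. Of the 9 partners 1 was called, and their median log2 fold change was 0.14. In wild type Fbp2, the fructose bisphosphatase of muscle, was 89.0 times the level of Fbp1, at 36.5 ± 8.96 against 0.411 ± 0.146 CPM per kilobase (SD, n = 5 each). In transgenic library 5 the same ratio was 3.45. Fbp2 was the partner called higher, by 0.62 ± 0.16 on the log2 scale (SE; edgeR adjusted p = 0.0439), and it lost the call without any 1 of 8 libraries, wild-type 1 to 4 and transgenic 1, 3, 4 and 5, with an edgeR adjusted p of 0.0599 to 0.132. Mat2a, the S-adenosylmethionine synthetase of cells outside the liver, was 7.27 times Mat1a in wild-type muscle and 0.154 times Mat1a in transgenic library 5, where Mat1a reached 94.5 CPM per kilobase. G6pc3, the glucose phosphatase found in all cells, went from 40.1 times G6pc in wild type to 0.746 times in that library. Fabp3, the binding protein of heart and muscle, went from 50.7 to 2.23 times Fabp1, and Hsd17b11 from 5.61 to 0.399 times Hsd17b13. In transgenic library 5 the liver gene was thus the higher one for Mat1a, G6pc and Hsd17b13, while Fbp2 and Fabp3 stayed above Fbp1 and Fabp1. Mat1a was above its partner in 2 of 5 transgenic libraries, G6pc and Hsd17b13 in 1 each, and none of the 3 in a wild-type library. Over the transgenic libraries G6pc3 averaged 7.12 ± 1.81 against 2.43 ± 3.23 for G6pc, Hsd17b11 2.26 ± 0.492 against 2.24 ± 2.89 for Hsd17b13, and Mat2a 15.6 ± 3.52 against 28.1 ± 37.6 for Mat1a (CPM per kilobase, SD, n = 5).

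Of the other partners, Pck2, Adh5 and Aldh2 stood beside members that were already high in wild type, and Cad beside Cps1, which was low there. Pck2, the mitochondrial carboxykinase, was 0.0430 times Pck1 in wild type. Adh5, the formaldehyde-clearing dehydrogenase of all cells, was 0.578 times Adh1, and Aldh2 was 1.08 times Aldh1a1. Cad, which makes carbamoyl phosphate for pyrimidines, stood at 0.713 ± 0.101 CPM per kilobase in wild type beside 1.52 ± 0.761 for Cps1 (SD, n = 5 each), and in transgenic library 5 at 0.653 beside 85.3. The partners' log2 fold changes lay between -0.02 and 0.62.

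**Figure D5:**
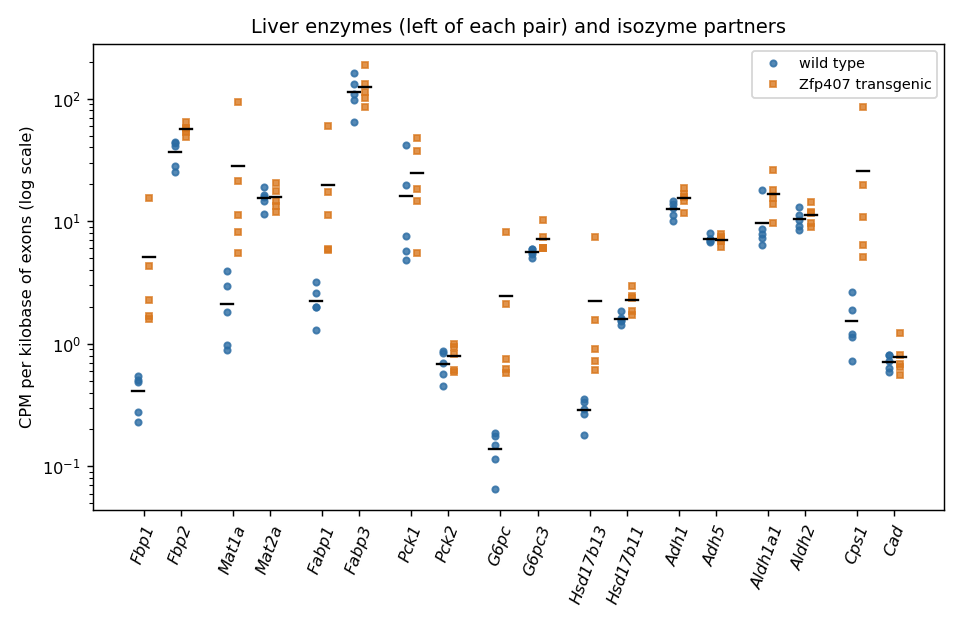
CPM per kilobase of exons on a log axis for 9 members and their isozyme partners, with a point for each library and a black bar at the group mean. Points of Mat1a, G6pc and Cps1 spread upward in transgenic muscle, while those of Mat2a, G6pc3 and Cad stay together, and the mean of Fbp2 moves from 36.5 to 56.1.

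Genes of the same pathways outside the set were listed by their known roles, and the list includes isozyme partners. Of 75 genes listed 71 were in the table and 62 were tested, of which 20 were called higher and 1 lower, with a median log2 fold change of 0.63. Over all genes tested 4.28% were called higher and 1.05% lower. The list was chosen with earlier results of these data known, so these shares stand beside it for scale only. Calls in this list moved with single libraries, to 6 higher without wild-type library 3, 7 without library 2 or 4, 11 without library 1 and 13 without transgenic library 4, and 6 of the 21 called genes kept the call throughout.

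Genes of steps known mainly from the liver were among those called higher. In bile acid synthesis Baat, which joins bile acids to taurine or glycine, Slc27a5, which activates them, and Cyp7a1, the rate-limiting enzyme, had log2 fold changes of 3.71 ± 0.83, 3.57 ± 0.77 and 3.52 ± 0.79 (SE). Kynu and Haao, of the kynurenine path of tryptophan breakdown, had 3.27 ± 0.72 and 2.91 ± 0.59, and Ugt2b34, a glucuronosyltransferase, 3.79 ± 0.76 (SE). The slope of Haao on Alb was 0.52 ± 0.14 (SE) and not called, with an edgeR adjusted p of 0.105. Haao stood at 1.68 CPM in transgenic library 2 and 1.04 CPM in library 4, the reverse of their order for Alb. Uroc1, of histidine breakdown, Dmgdh, of choline breakdown, and Gldc, of the glycine cleavage system, had 3.77 ± 0.85, 3.64 ± 0.90 and 3.15 ± 0.80 (SE). Slc25a13, an aspartate carrier of the urea cycle, had 2.22 ± 0.59 (SE). Without transgenic library 5 these 10 log2 fold changes were smaller, from 1.27 for Slc25a13 to 2.77 for Ugt2b34, with 2.51 for Baat. Of these, Slc27a5, Haao and Ugt2b34 kept the call in every fit with 1 library left out. Baat, Cyp7a1, Kynu, Uroc1, Dmgdh, Gldc and Slc25a13 lost it without 2 to 6 of the 10 libraries, always including wild-type library 3, with an edgeR adjusted p of 0.0502 to 0.109.

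Pcx and Slc37a4 were called with slopes on Alb near 0. Pcx, the pyruvate carboxylase of many tissues, had a log2 fold change of 0.80 ± 0.20 and a slope of -0.003. Slc37a4, the glucose phosphate carrier that works with G6pc, was the gene called lower, at 64.2 ± 10.7 CPM in wild-type muscle and 38.9 ± 6.35 CPM in transgenic muscle (SD, n = 5 each). On the log2 scale the difference was -0.72 ± 0.14 (SE; edgeR adjusted p = 0.0104), its slope on Alb was 0.005, and it kept the call in every fit with 1 library left out. Without transgenic libraries 4 and 5 the difference was -0.65 and was not called (edgeR adjusted p = 0.0756). G6pc and its carrier thus had log2 fold changes of opposite sign. Fmo5, a flavin monooxygenase, and Aldh3a2, a fatty aldehyde dehydrogenase, had 1.28 ± 0.34 and 0.50 ± 0.13 (SE), and 0.75 and 0.37 without transgenic library 5. The slope on Alb was positive for Fmo5, at 0.45 ± 0.07 (SE; edgeR adjusted p = 0.00242), and was 0.14 ± 0.04 for Aldh3a2 (SE; edgeR adjusted p = 0.216). Pcx, Fmo5 and Aldh3a2 lost their calls without 6, 6 and 7 of the 10 libraries, always including wild-type libraries 1 to 4, with an edgeR adjusted p of 0.0615 to 0.120.

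Hepatocytes near the portal vein and near the central vein are known to hold different enzymes, and members of both sides were set against each other. Only members that follow Alb were used, a choice made after their values were seen, so no test is given. This left out Cyp2e1 and Aldh1a1 of the central side and Cyp2f2, Asl and Pck1 of the portal side. Sds, of the portal side, was too low to be classed. Cps1, Ass1, Arg1, Otc, G6pc and Fbp1 of the portal side summed to 190.0 to 236 counts per 1000 Alb counts in wild type, with 200.2 to 223 in transgenic muscle. Cyp2c29 and Cyp3a11 of the central side summed to 44.0 to 93.0 and 46.8 to 76.1. Cps1 alone held 97.1 to 138 per 1000 Alb counts in wild type and 143 to 156 in transgenic muscle. Cyp3a11 alone held 34.5 to 83.3 and 40.6 to 69.5. The sums thus rest mostly on these genes, 1 for each side. The portal sum was 2.53 to 4.32 times the central sum in wild-type muscle and 2.63 to 4.46 times in transgenic muscle, and these ranges overlap almost in full.

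The authors' deposited table puts 30 of the 37 members past an adjusted p of 0.05 as higher and 0 as lower, among 1158 genes past it. DESeq2 run here on the same counts also called 30 of the 37 higher, where 5.66% of 15883 genes were.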

How the data were processed

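Per the labels' protocols, muscle RNA was isolated with Trizol and a column kit with DNase, and libraries followed standard Illumina steps. Reads were handled with HTSeq 0.6.1, SAMtools 1.2, TopHat2 2.1 and Bowtie2 2.2.6, and DESeq2 1.10 gave the statistics, all on mouse build GRCm38, per the submitters' processing notes. The sources used here give neither strand nor counting settings. The authors deposited whole-number counts per gene for 10 libraries, with a mean normalized signal, a log2 fold change and its standard error, a Wald score and p-values. The deposited adjusted p-values correspond to about 18268 genes, so the 15883 rows used here are part of a larger table.

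The members and lists were chosen with earlier results of these data known. Every member is named, values in every library are given for the members with the largest and smallest log2 fold change of each role and for each member that does not follow Alb, and up to 3 called genes per pathway list are named; some genes this rule takes are left out of the text. Genes that passed filterByExpr were scaled by TMM and their counts fitted with edgeR 4.0.16 in R 4.3.3 (glmQLFit and glmQLFTest, no covariate, Benjamini-Hochberg adjustment over 13338 genes). Standard errors were taken from the estimate and the F statistic. The slope fit added log2 Alb CPM to the group and left Alb out. The ratio to Alb used log2 CPM with a prior count of 2. P-values measure the spread between libraries, which the columns do not tie to single mice. Gene positions and exon lengths come from GENCODE M21, matched by gene ID for 99.7% of genes, and 7 members overlap another gene of the table. Both fits were tested on simulated counts. The alternatives were DESeq2 1.42.0, other filters, size factors and prior counts, library sizes without Lars2, Gm15564 and Gm15662, and each library left out. Added after the data were seen were both high transgenic libraries left out, the column number as a block and Adipoq as the reference.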

Additional observations from a re-analysis of the deposited data

Results flagged for a closer look

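In 4 of 150 groups of 5 values examined, 1 library stood apart from the other 4 by more than Dixon's 95% criterion, where chance alone flags about 1 group in 20. The measure given is the gap to the nearest library as a share of the group's range. Cyp2f2 in transgenic library 5 had a log2 CPM of 4.58, against 2.51 in the next library, a gap of 0.737 of the range. Adh4, an alcohol dehydrogenase too rare to be tested, stood apart in the same library, at a log2 CPM of 1.29 against -0.35, a gap of 0.754. For Cyp2d26 it was the ratio to Alb in transgenic library 1, at -6.66 on the log2 scale against -7.52, a gap of 0.843. For Bhmt it was the ratio to Alb in wild-type library 1, at -4.02 against -4.51, a gap of 0.735.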

How the results depend on the processing

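With DESeq2, 1230 genes and 34 pathway genes as higher passed, against 711 and 20 with edgeR. With Lars2, Gm15564 and Gm15662 left out of the library sizes, edgeR called 692 genes. They held 25 members and 17 pathway genes as higher, and 0 members and 1 pathway gene as lower. Leaving out 1 library at a time gave 450 to 1116 genes called, 15 to 27 members called higher, 6 to 27 pathway genes called higher and 1 called lower, and a median log2 fold change of the members of 2.19 to 3.57. For the slope on Alb the same fits called 54 to 289 genes and 11 to 28 members. Between 25 and 27 members followed Alb in them. Without transgenic libraries 4 and 5, 13 pathway genes were called higher and 0 lower, the median of the members was 1.82, and the slope passed for 0 genes and 0 members. The class that follows Alb held 17 members within wild type alone. With Adipoq in place of Alb, 2 members had a ratio to Adipoq that varied less than their level. These were Pck1 and Cyp2e1, which do not follow Alb. The cause of these shifts was not tested. For single members, 536 of the values under alternatives kept their direction and their side of the threshold, 33 lost the call, 9 gained it, and none changed sign. The labels pair no mice, but the columns of both groups are numbered 1 to 5. The log2 CPM deviations of same-numbered columns correlated at -0.04 to 0.17 over 13338 genes, above 0.1 for 3 of 5 numbers, and 4 of 10 columns correlated best with their own number, while Alb had the same order by number in both groups. With the column number as a block, 672 genes were called, with 26 members and 22 pathway genes higher and 0 members and 1 pathway gene lower, and the slope on Alb passed for 67 genes and 14 members. At fewer than about 10 counts per library, as for G6pc, Otc, Ces3b and Cyp8b1 in wild type, counting error alone is large.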
